A study of Drosophila melanogaster with 31 samples.

Results

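The comparison of nutrient restriction (NR) with normal food in Tsc1 mutant clones used 8 of the 31 RNA-seq libraries of the series, 4 from NR and 4 from normal food, and all genes in the count table. The libraries were chosen by their labels, with no expression value in the choice. Each library was made from 1 clone of Tsc1 mutant cells cut by laser microdissection from the eye imaginal disc of Drosophila melanogaster. This disc is the larval epithelium that gives rise to the adult eye. According to the study, clones were taken from the dividing region ahead of the morphogenetic furrow. The NR clones came from larvae raised on food with less yeast and taken at 156 hr after egg laying (AEL), and the normal food clones from larvae taken at 108 hr AEL, both at 25 °C. Larvae under NR develop more slowly, and both groups were taken as wandering larvae of the last instar, so that food and age are 1 contrast in these data and cannot be told apart. The clones were homozygous for Tsc1[Q87X], a nonsense allele, and were made by mitotic recombination with a heat shock in early larvae. The cross also carried a foxo RNAi transgene that Gal80ts, a temperature-sensitive inhibitor of Gal4, keeps off at 25 °C. Both foods were also given to wild-type (wt) clones at 25 °C, taken at the same ages as the Tsc1 clones, and to Tsc1 clones with foxo knockdown (Tsc1 foxoRi) after a shift to 30 °C. These libraries are set beside those of Tsc1 clones where stated, and share none of them. Sex was not selected in the larvae, and nothing in the labels ties the clones to separate animals.

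Tsc1 and Tsc2 form a complex that holds Rheb, the activator of the growth kinase TORC1, in its inactive state. Cells without Tsc1 keep TORC1 active and grow large. FoxO, a transcription factor that enters the nucleus when insulin signaling is low, restrains the growth of such cells under NR. The comparison asks which transcripts differ in Tsc1 mutant cells between larvae short of yeast protein and well-fed larvae.

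Total counts were 8897224 to 13316136 in NR libraries and 8232312 to 12755572 in normal food libraries. Ribosomal RNA genes took 48.1% ± 10.3 of the counts under NR and 53.8% ± 7.53 on normal food (SD, n = 4 each). The Tsc1 transcript itself was at 16.2, 19.4, 21.5 and 19.2 CPM, that is, counts scaled to library size, under NR, and at 42.9, 13.6, 25.7 and 16.9 CPM on normal food. A nonsense allele leaves a transcript to count, so this level does not check the genotype. The eye progenitor markers, among them eyeless (ey), twin of eyeless (toy) and eyes absent (eya), were all present, with summed levels of 1638 to 1996 CPM under NR and 1880 to 2104 CPM on normal food. The antenna list of 9 genes, all tested, summed to 633, 406, 661 and 545 CPM under NR, against 303, 334, 246 and 380 CPM on normal food. The groups did not overlap. Of the 9 members, 3 (hth, ct and al) were higher at an unadjusted p under 0.05, against 8.38% of all tested genes. Of the 5 members of at least 5 CPM on average, 3 had a higher level under NR. The other 2, dan and danr, had a lower level (log2 FC -1.05 and -1.03). Most of the sum came from hth, dan and danr, which eye cells also express. The antennal genes Dll, al and Lim1 stayed at or under 1.31, 1.01 and 2.57 CPM in the 8 libraries. The antennal genes ct and ss had log2 FC of 5.10 and 3.09, and neither passed the adjusted test. The part of antennal RNA in the comparison was not tested.

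Of 13524 genes tested, 1 was downregulated under NR in Tsc1 clones (0.00739%) and 0 were upregulated (0%), where a call took an adjusted p under 0.2 and a change of more than 0.8 on the log2 scale (log2 FC) in edgeR's quasi-likelihood test with Benjamini-Hochberg adjustment. The same thresholds gave 68 genes with DESeq2, 57 of them higher. At an unadjusted p under 0.05 there were 1133 genes with a higher level under NR (8.38% of those tested) and 83 with a lower level (0.614%). Most of the higher ones were rare transcripts: 888 of the 1133 averaged under 1 CPM over the 8 libraries, and 962 stayed under 1 CPM in each normal food library. Among the 6456 genes of at least 5 CPM on average, 161 were higher (2.49%) and 63 lower (0.976%) at this unadjusted p. In 129 of these 6456 genes all NR libraries lay above all normal food libraries (2.0%), and in 69 all lay below (1.07%). The median log2 FC of these genes was 0.00.

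The downregulated gene was Eip75B (FBgn0000568, 3L, 17950953 to 18064696, minus strand). Eip75B encodes E75, a nuclear receptor induced early in the response to the steroid hormone ecdysone, which times larval molts and the start of metamorphosis. Eip75B was at 24.0, 37.1, 34.5 and 46.4 CPM in the NR libraries, against 91.6, 105, 117 and 109 CPM in the normal food libraries. The highest NR library stood below the lowest normal food library by a wide margin. The means were 35.5 ± 9.20 CPM under NR and 106 ± 10.6 CPM on normal food (SD, n = 4 each), and the log2 FC was -1.58 ± 0.23 (SE, 95% interval -2.02 to -1.13), with an adjusted p of 0.000396 by edgeR's quasi-likelihood test. In wt clones Eip75B was at 127, 186, 236 and 165 CPM under NR, against 151, 119 and 101 CPM on normal food; the log2 FC was 0.53, with an adjusted p of 0.907. In Tsc1 foxoRi clones at 30 °C, Eip75B was at 54.6, 52.3, 47.4 and 25.4 CPM under NR, against 77.4, 60.4, 64.6 and 67.8 CPM on normal food. Their ranges did not overlap either, but the log2 FC of -0.59 had an adjusted p of 0.364. Eip75B was called under each of the 28 alternatives to the test, the scaling, the filters and the libraries that were run. Short annotated genes overlap Eip75B, of which the tested CG32192 and lncRNA:CR45921 reached at most 0.232 and 1.31 CPM in a Tsc1 library.

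**Figure D1:**
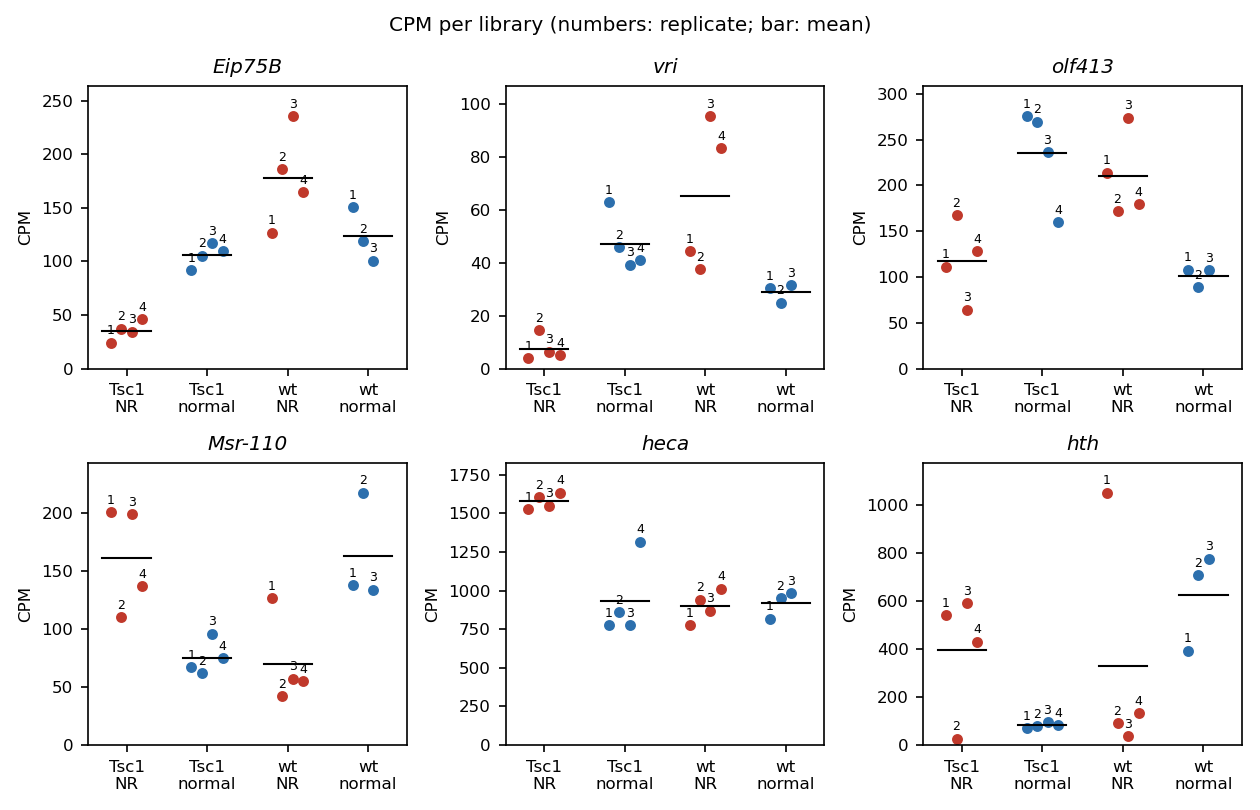
CPM of 6 genes (panels, linear axis from 0) in each Tsc1 library (NR, then normal food) and each wt library (NR, then normal food). Points are libraries with their replicate number and bars are group means. Eip75B lies between 24.0 and 46.4 CPM in Tsc1 clones under NR and between 91.6 and 117 CPM on normal food, and hth is at 26.1 CPM in NR library 2 and at 432 to 591 CPM in the other Tsc1 NR libraries.

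Eip75B belongs to a list of 41 ecdysone and developmental timing genes, all of which were tested and 26 of which averaged at least 5 CPM. Of these 26, 0 were higher and 3 lower at an unadjusted p under 0.05, Eip75B, vri and ImpE1, against 2.49% higher and 0.976% lower of all genes of that level. Their median log2 FC was -0.23 in Tsc1 clones, -0.25 in Tsc1 foxoRi clones and 0.17 in wt clones, against 0.00 for all genes of that level in Tsc1 clones. EcR, the ecdysone receptor gene, had a log2 FC of 0.24 and usp, its partner, of 0.08. Of the early and late response genes, Eip74EF was at -0.17, Hr39 at -0.22 and ftz-f1, a nuclear receptor gene that follows the ecdysone pulse, at 0.67. The gene ken, a transcriptional repressor, was at 38.0, 47.0, 37.3 and 44.9 CPM under NR, against 29.5, 28.3, 30.1 and 26.5 CPM on normal food (log2 FC 0.55). The temporal RNA-binding protein gene Syp was at -0.34 and chinmo, a gene of undifferentiated larval cells, at 1.06. All of these but Eip75B had an adjusted p of 0.551 or more by edgeR's quasi-likelihood test. ImpE1, an ecdysone-induced gene, differed mainly through 1 library, with 3.75, 3.17, 5.70 and 1.68 CPM under NR against 10.7, 8.17, 49.4 and 3.03 CPM on normal food.

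Besides Eip75B, the 9 genes with the smallest unadjusted p among those lower under NR were vri, olf413, sea, fabp, GstS1, CG42342, lama, lncRNA:CR43724 and side-IV, each with an adjusted p of 0.551. The circadian transcription factor gene vri was at 4.02, 14.4, 6.43 and 4.96 CPM under NR, against 63.0, 45.9, 39.4 and 40.95 CPM on normal food. The groups did not overlap, and the log2 FC was -2.66 ± 0.59 (SE). NR library 2 was the highest of the NR libraries, and without it vri passed the test with a log2 FC of -3.28 and an adjusted p of 0.0693 by edgeR's quasi-likelihood test. In wt clones vri was at 44.4, 37.6, 95.5 and 83.4 CPM under NR and 30.3, 24.9 and 31.6 CPM on normal food. GstS1, a glutathione S-transferase gene, was at 170.5, 242, 136 and 157 CPM under NR, against 325, 385, 425 and 281 CPM on normal food (log2 FC -1.0 ± 0.29, SE). The gene lama, expressed in undifferentiated eye precursors, was at 11.4, 26.3, 5.88 and 1.33 CPM under NR, against 63.7, 44.4, 75.5 and 77.0 CPM on normal food (log2 FC -2.53). In Tsc1 foxoRi clones lama had a log2 FC of -3.27 and passed the test, with an adjusted p of 0.0797 by edgeR's quasi-likelihood test.

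The genes sea, which encodes the mitochondrial citrate carrier, and fabp, which encodes a fatty acid binding protein, share the same annotated interval (3R, 11559896 to 11567054, minus strand), so their counts cannot be assigned to either with certainty. Counts for sea gave 11.9, 51.7, 5.88 and 18.8 CPM under NR, against 157, 85.4, 127 and 59.1 CPM on normal food. Counts for fabp gave 21.3, 80.1, 8.27 and 29.2 CPM under NR, against 258, 119, 187 and 78.5 CPM on normal food. Log2 FC were -2.28 for sea and -2.21 for fabp, with NR library 2 again the highest NR library. CG42342 was at 77.4 to 206 CPM under NR and 281 to 449.6 CPM on normal food. The lncRNA:CR43724 was rare, with 0 to 0.201 CPM under NR and 1.76 to 3.05 CPM on normal food.

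Of the 10 genes with the smallest unadjusted p among those higher under NR, 4 were at 37.5 CPM or more in every NR library. These were heca, Msr-110, snoRNA:Psi28S-3305c and FBgn0001332, an identifier that did not match the annotation. The gene heca (headcase, 3R, 30277932 to 30372382) encodes a cytoplasmic protein that acts with Unkempt and TORC1 components to limit growth under nutrient restriction. It was at 1529, 1606, 1550 and 1633 CPM under NR, against 775, 862, 776 and 1316 CPM on normal food. Normal food library 4 stood apart from the others, below the lowest NR library. The log2 FC of heca was 0.76 ± 0.19 (SE), with an adjusted p of 0.551 by edgeR's quasi-likelihood test, and it was -0.03 in wt clones and 0.45 in Tsc1 foxoRi clones. The Unkempt gene unk, looked up after heca had been seen, was at 57.1 to 64.9 CPM under NR and 58.5 to 88.7 CPM on normal food. The identifier FBgn0001332 was at 73.5, 37.5, 81.5 and 64.2 CPM under NR and at 31.8 to 33.2 CPM on normal food.

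Whether the food contrast differs between Tsc1 and wt clones was tested as a difference of differences. Of 13524 genes, 6 passed the thresholds (0.0444%), 3 with a higher and 3 with a lower food effect in Tsc1 clones: Eip75B, olf413 and side-IV on the lower side, and Msr-110, FBgn0250876 and CG31343 on the higher. This count rests on 29 libraries; over all 31, with a wt normal food library of few detected genes included, 0 passed by edgeR's quasi-likelihood test and 803 had an unadjusted p under 0.05. For Eip75B the difference was -2.11 ± 0.34 (SE) on the log2 scale, with an adjusted p of 0.00276 by edgeR's quasi-likelihood test. The gene olf413 (3L, 22136090 to 22247702) was at 111, 168, 64.2 and 128 CPM in Tsc1 clones under NR, against 276, 269.5, 236 and 159.6 CPM on normal food. In wt clones it was at 214, 172, 274 and 179.8 CPM under NR, against 108, 88.7 and 107 CPM on normal food. The log2 FC was -1.0 in Tsc1 clones and 1.05 in wt clones, and their difference was -2.05 ± 0.38 (SE, adjusted p = 0.021, edgeR's quasi-likelihood test).

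Msr-110 (3L, 5566919 to 5577348) went the other way. It was at 200.5, 109.8, 198 and 136 CPM in Tsc1 clones under NR, against 67.1, 62.0, 95.9 and 74.5 CPM on normal food. In wt clones it was at 126, 42.3, 57.0 and 54.9 CPM under NR, against 138, 217 and 134 CPM on normal food. The log2 FC was 1.11 in Tsc1 clones and -1.22 in wt clones, and the difference of 2.32 ± 0.42 (SE) had an adjusted p of 0.021 by edgeR's quasi-likelihood test. In Tsc1 foxoRi clones Msr-110 passed the test of the food contrast alone, with a log2 FC of 1.07 and an adjusted p of 0.0898. The unmatched FBgn0250876 was at 54.2 to 114 CPM in Tsc1 clones under NR and 35.7 to 47.7 CPM on normal food, with a difference from wt clones of 2.33. The cell surface receptor gene side-IV, of the Sidestep immunoglobulin family, was at 16.8, 45.1, 12.8 and 35.8 CPM in Tsc1 clones under NR, against 69.95, 80.7, 46.0 and 59.5 CPM on normal food, with a difference from wt clones of -2.87 (adjusted p = 0.134, edgeR's quasi-likelihood test). CG31343 was rare in Tsc1 clones, with 0.0670, 1.00, 1.84 and 0.0886 CPM under NR and 0 in each normal food library, so that no fold is given. Just outside the threshold, with an adjusted p of 0.202, were vri (difference of -3.83) and Cht6 (4.07). Cht6, a chitinase gene, was at 246, 218, 200.1 and 209.7 CPM in Tsc1 clones under NR, against 19.1, 77.3, 41.9 and 122 CPM on normal food.

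Levels of homothorax (hth) are given beside these differences. Homothorax is a homeodomain protein of the most anterior, undifferentiated eye cells, of the antenna and of the peripodial membrane. It was at 542, 26.1, 591 and 432 CPM in Tsc1 clones under NR, against 69.8, 79.5, 95.6 and 84.0 CPM on normal food. In wt clones it was at 1052, 91.8, 37.1 and 133 CPM under NR, against 393, 709.5 and 778 CPM on normal food. So hth was high in NR libraries 1, 3 and 4 of Tsc1 clones and in the normal food libraries of wt clones. It was highest of all in wt NR library 1. With the log2 CPM of hth as a covariate, an alternative chosen after seeing the data, 0 genes passed the test of the difference, with 696 at an unadjusted p under 0.05. The difference for Eip75B was then -1.86 with an adjusted p of 0.237, for Msr-110 1.50 and for olf413 -1.62, both with an adjusted p of 0.48 by edgeR's quasi-likelihood test. All 6 differences kept their sign. In Tsc1 clones hth itself was higher in NR libraries 1, 3 and 4 than on normal food, so this covariate shares part of the contrast. The food contrast in Tsc1 clones alone still called Eip75B with this covariate. A clone holds cells of 1 small place in the disc, and the part of that place in these results was not tested.

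Other genes of place also separated single libraries. Differentiating retina markers summed to 125, 1660, 166 and 168 CPM in NR libraries 1 to 4, against 215, 350.5, 180.3 and 2129 CPM in normal food libraries 1 to 4. NR library 2 and normal food library 4 thus stood apart from the others in transcripts of differentiating photoreceptors. In these libraries glass (gl), a transcription factor of photoreceptors, was at 437 CPM (NR 2) and 609 CPM (normal 4), against at most 4.87 CPM in the other NR libraries and at most 31.2 CPM in the other normal food libraries. The receptor tyrosine kinase gene sev was at 184 and 105 CPM in these libraries and at most 1.01 CPM in the other 6. The study describes its clones as taken ahead of the furrow, in dividing tissue. Where the clones of NR library 2 and normal food library 4 lay was not tested. In such RNA from mixed cells, fewer cells of a type and less RNA per cell cannot be told apart. The Iroquois genes mirr and caup, markers of the dorsal eye field, were highest in normal food libraries 1 and 2, with 169 and 67.6 CPM for mirr, and in NR libraries 3 and 4, with 12.9 and 57.8 CPM for mirr. The homeodomain gene cut (ct) was at 73.9, 6.03, 39.9 and 7.62 CPM under NR, against 2.18, 0.103, 1.30 and 0.101 CPM on normal food. Without NR library 2, 21 genes passed the test in place of 1, of which 12 were higher and 9 lower, and without NR library 2 and normal food library 4 it was 14.

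**Figure D2:**
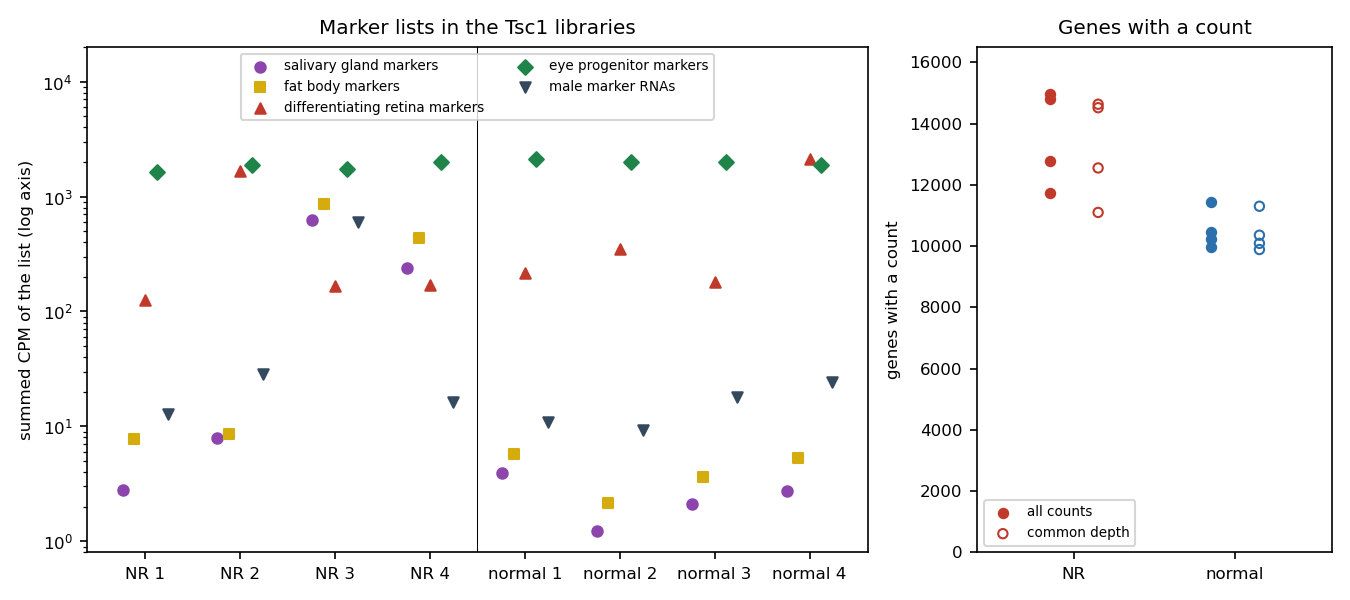
Left, summed CPM (log axis) of 5 marker lists in each Tsc1 library, NR libraries 1 to 4 before normal food libraries 1 to 4. Right, genes with a count per library, over all counts (filled) and at a common depth (open), NR in red and normal food in blue. Differentiating retina markers stand out in NR library 2 (1660 CPM) and normal food library 4 (2129 CPM), and salivary gland and fat body markers in NR libraries 3 and 4.

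The remaining 6 of the 10 genes were high in part of the NR libraries only. Of them, 5 were at their highest in NR library 3 and next highest in NR library 4. Of all 1133 genes higher at an unadjusted p under 0.05, 360 had NR libraries 3 and 4 as the 2 highest of the 8. In 557 of the 1133 the 2 highest were NR libraries 2 and 3. Hsp70Aa, which encodes the main stress-induced chaperone, was at 0.134, 1.24, 78.8 and 24.2 CPM under NR and at most 1.52 CPM on normal food. Hsp68 was at 2.95, 0.850, 84.6 and 28.7 CPM under NR and at most 2.80 CPM on normal food, and Hsp70Ab at 2.34, 3.17, 122 and 42.1 CPM, against at most 4.59 CPM. The lncRNA:alphagamma-element:CR32865, a transcript of an Hsp70 locus, was at 0.201, 0.541, 16.9 and 4.52 CPM under NR and at most 0.202 CPM on normal food. Sgs3, a glue protein gene of the salivary gland, was at 0.335, 0.541, 136 and 65.0 CPM under NR and at most 0.218 CPM on normal food. The zinc finger gene opa had another pattern, with 40.5, 1.08, 26.1 and 15.6 CPM under NR and at most 1.42 CPM on normal food. The Hsp70 copies are nearly identical, and how reads were shared among them can shift counts from one copy to another.

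Markers of other tissues stood beside these values. The salivary gland list (10 genes, 9 tested) summed to 2.81, 7.96, 631 and 237 CPM in NR libraries 1 to 4, and to 1.24 to 3.92 CPM on normal food. The fat body list (11 genes, all tested) summed to 7.77, 8.57, 862 and 436 CPM under NR, and to 2.17 to 5.77 CPM on normal food, with Lsp1beta, a larval storage protein gene, at 259.8 and 198 CPM in NR libraries 3 and 4 and at most 1.24 CPM in the other 6. In normal food libraries, 8 salivary gland and 7 fat body markers stayed under 1 CPM throughout. The RNAs roX1 and roX2, which mark male cells, were at 455 and 104 CPM in NR library 3 and at most 5.33 and 0.621 CPM in the other 7 libraries. Sums of glia, muscle and trachea markers overlapped between the foods, at 294 to 351 CPM under NR and 201 to 328 CPM on normal food for glia. The part of such RNA in the comparison was not tested. Without NR libraries 3 and 4, left out after seeing the data, 1 gene was called, Eip75B, as with them. At an unadjusted p under 0.05 by edgeR's quasi-likelihood test there were 396 genes without them, against 1216 with them. A fit with fewer NR libraries can call less, so these counts do not measure the part of NR libraries 3 and 4.

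NR libraries also held more genes with a count: 11738, 14950, 14806 and 12792 under NR, against 10472, 9955, 11430 and 10240 on normal food. The groups did not overlap, and the mean difference of 3047 genes had an exact permutation p of 0.0286 (two-sided), the smallest that 4 against 4 libraries allow, and 0.171 after adjustment over 6 library measures. At a common depth of 4216033 counts outside ribosomal RNA, the numbers were 11099, 14518, 14632 and 12551 under NR, against 10356, 9888, 11301 and 10090 on normal food, and NR library 1 fell below normal food library 3. The exact permutation p was then 0.0571. The log2 FC followed the level: the median was 1.90 in the 5103 genes under 1 CPM, 0.42 in the 1965 genes of 1 to 5 CPM, and between -0.06 and 0.07 above 5 CPM. Fitted values of rare genes depend on the prior count, so lists are described below by their members of at least 5 CPM.

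**Figure D3:**
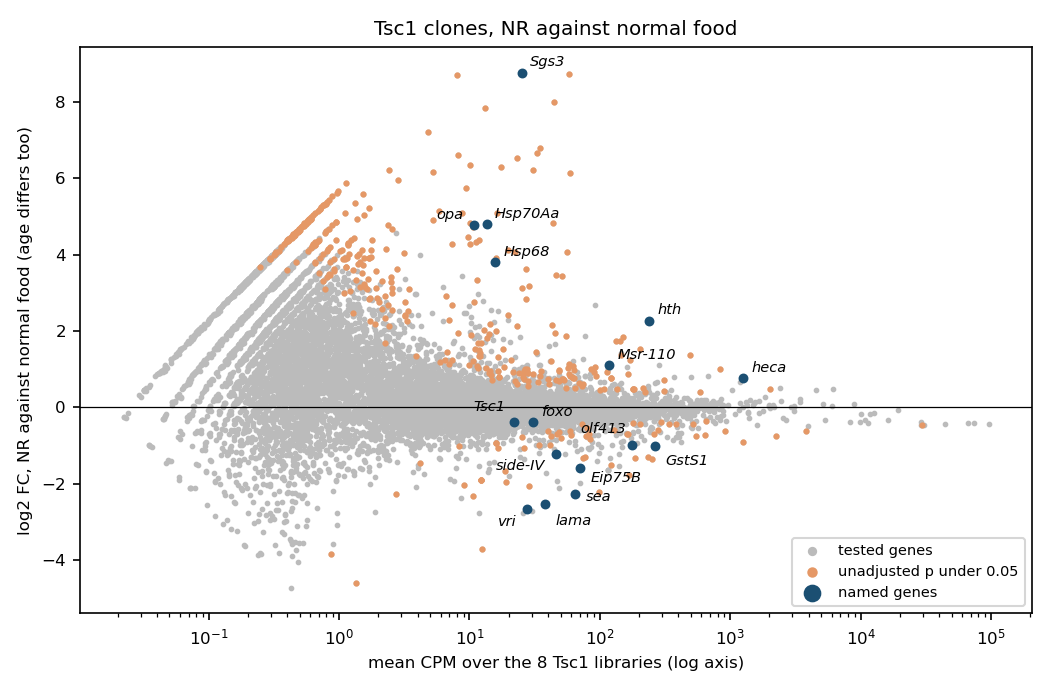
Log2 FC of NR against normal food in Tsc1 clones (vertical axis) by mean CPM over the 8 libraries (log axis), for 12158 genes; 1366 genes with no count in any library of one group are not shown. Orange points have an unadjusted p under 0.05, and named genes are in blue. Points under 1 CPM lie mostly above 0 (median 1.90), and Eip75B lies at -1.58.

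The median log2 FC of ribosome, translation and cell cycle lists lay close to 0 in Tsc1 clones, and that of replication-dependent histones lay below. Of 80 cytoplasmic ribosomal protein genes, 0 were higher or lower at an unadjusted p under 0.05, and their log2 FC ran from -0.25 to 0.20 with a median of 0.03, against -0.25 in wt clones. Scaling by DESeq2's size factors or by the upper quartile moved the log2 FC of named genes by a median of -0.03 or -0.02, so a median of that size has no direction. RpL41 was at 0.11, RpL3 at 0.02 and RpL5 at 0.07. The median was 0.04 in 32 translation initiation and elongation factors, 0.05 in 50 Myc and ribosome biogenesis genes and 0.04 in 25 aminoacyl-tRNA synthetases. Myc, which drives ribosome production, was at 171, 127, 169.7 and 192 CPM under NR and 286, 190.1, 172 and 127 CPM on normal food. Of 83 cell cycle and replication genes, 0 were higher and 1 lower at that p, E2f1, the activator of S phase genes, with a log2 FC of -0.69. Both RnrS, of nucleotide synthesis (0.48), and the checkpoint kinase gene lok (0.50) had no overlap between the foods. Of the 83 genes, 2 had no overlap with NR higher, against 2.0% of all genes of that level. Of 24 replication-dependent histone genes, whose near-identical copies can share reads, 0 were higher and 3 lower at that p (0.976% lower among all genes of that level), with a median log2 FC of -0.41 in Tsc1 clones and 0.95 in wt clones.

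The nutrient pathway itself had no member past the test. Of 28 insulin, TORC1 and FoxO genes of at least 5 CPM, 0 were higher or lower at an unadjusted p under 0.05, with a median log2 FC of 0.01. The transcript of foxo was at 24.1, 28.8, 25.4 and 27.3 CPM under NR, against 38.6, 34.9, 33.3 and 31.1 CPM on normal food. These did not overlap, but the log2 FC of -0.38 had a 95% interval of -0.92 to 0.15 and an adjusted p of 0.801 by edgeR's quasi-likelihood test. Pdk1, the kinase that activates Akt and S6k, showed the same, at 10.9, 13.2, 12.5 and 11.5 CPM under NR, against 25.7, 18.6, 17.4 and 14.9 CPM on normal food (log2 FC -0.67). Of the 28 genes, 2 had no overlap with NR lower and 0 with NR higher, against 1.07% and 2.0% of all genes of that level. The TORC1 inhibitor genes scyl and chrb, relatives of mammalian REDD1, were at 0.18 and 0.21. Tctp, which encodes an activator of Rheb and was looked up after its values were seen, was at 526, 645, 533 and 567 CPM under NR, against 698, 712, 774 and 728 CPM on normal food. Thor, which encodes the translational repressor 4E-BP, stayed at or under 6.74 CPM.

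Metabolic lists had single members apart. Of 27 glycolysis and lactate genes, 3 were higher and 1 lower at an unadjusted p under 0.05, against 2.49% and 0.976% of all genes of that level. Glyp, glycogen phosphorylase, was at 102, 63.0, 80.7 and 71.2 CPM under NR, against 6.538, 30.6, 58.7 and 48.3 CPM on normal food (log2 FC 1.14). The gluconeogenic gene fbp was at 1.05 and PyK, pyruvate kinase, at 0.47. Men, malic enzyme, was at 26.7, 25.1, 14.3 and 25.9 CPM under NR, against 48.8, 49.4, 61.4 and 22.8 CPM on normal food. Its log2 FC was -0.99 in Tsc1 clones and 1.16 in wt clones, and in Tsc1 foxoRi clones, at -1.33, it passed the test with an adjusted p of 0.0996 by edgeR's quasi-likelihood test. Of 25 lipid genes, 2 were higher at that p (2.49% of all genes of that level), one of them the fat body marker apolpp. The other, AcCoAS, acetyl-CoA synthetase, was at 29.2, 19.3, 19.6 and 20.9 CPM under NR, against 4.90, 1.34, 11.5 and 5.76 CPM on normal food. Of 64 nuclear oxidative phosphorylation genes, 0 passed the unadjusted p, with a median of -0.02.

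Genes of the ER stress and proteasome lists had mostly negative log2 FC and those of the heat shock list mostly positive. No member passed the test. Of all 6456 genes of at least 5 CPM, 3261 had a higher and 3195 a lower level under NR. Of 32 genes of the unfolded protein response, ER chaperones and ER-associated degradation, 5 had a higher and 27 a lower level under NR. Their median log2 FC was -0.20. Hsc70-3, the ER chaperone BiP, was at 255, 331, 188 and 190.2 CPM under NR, against 334, 374, 290.2 and 313 CPM on normal food. Of 33 proteasome subunits, 6 had a higher and 27 a lower level, with a median of -0.16. In the heat shock list of 28 genes, 20 had a higher and 8 a lower level, with a median of 0.19. In this list 7 were higher at an unadjusted p under 0.05, against 2.49% of all genes of that level. These were Hsp68 and 6 Hsp70 copies (Aa, Ab, Ba, Bb, Bbb and Bc). Each was at its highest in NR library 3 and next highest in NR library 4. The constitutive chaperones Hsc70-4 (0.16) and Hsp83 (-0.16) did not pass that p. Of 35 stress and antioxidant genes, 2 were higher and 1, GstS1, was lower at that p, against 2.49% and 0.976% of all genes of that level. Cat, catalase, was at 76.9, 67.2, 56.6 and 58.9 CPM under NR, against 40.3, 48.3, 50.5 and 42.8 CPM on normal food (log2 FC 0.51). The foods did not overlap, as in 2.0% of all genes of that level with NR higher.

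Genes of snoRNAs and snRNAs, which guide ribosomal RNA modification and splicing, mostly had a higher level under NR. Of 188 members of at least 5 CPM, 162 were on the higher side, 30 were higher and 0 lower at an unadjusted p under 0.05, and in 12 the foods did not overlap, all with NR higher. Of all genes of that level, 2.49% were higher at that p and 2.0% had no overlap with NR higher. The median log2 FC was 0.37 in Tsc1 clones, -0.24 in wt clones and 1.42 in Tsc1 foxoRi clones. No member passed the adjusted test in Tsc1 clones. The snoRNA:Psi28S-3305c, which lies in the gene Hrb98DE, was at 128, 113, 134 and 80.3 CPM under NR, against 51.6, 48.7, 80.8 and 47.5 CPM on normal food (log2 FC 0.99), while Hrb98DE was at -0.21. The 3 copies of the spliceosomal U2 snRNA at 34AB, whose reads can be shared, had log2 FC of 0.77 to 0.78. Together these RNAs took 2.21% ± 0.489 of the counts under NR and 1.63% ± 0.514 on normal food (SD, n = 4 each, exact permutation p = 0.171), and many snoRNA genes lie inside a host gene, whose reads can overlap theirs.

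Retinal and patterning genes differed between libraries of the same food. Of 15 retinal determination genes, 2 were higher at an unadjusted p under 0.05 (2.49% of all genes of that level), hth and ct, and the median was -0.13 in Tsc1 clones against 1.52 in wt clones. Eya was at 134, 581, 69.7 and 178 CPM under NR and 398, 408, 328 and 499 CPM on normal food, with NR library 2 again apart from the other NR libraries. Wnt6 was at 26.9, 0.0772, 53.5 and 5.67 CPM under NR, against 3.05, 0, 0.0999 and 1.11 CPM on normal food. The Notch ligand gene Ser was at 42.2, 10.5, 47.5 and 88.6 CPM under NR, against 0.872, 0.931, 12.1 and 12.4 CPM on normal food. Lcp65Ag1, a larval cuticle gene, was at 177, 0.464, 155 and 88.9 CPM under NR, against 10.9, 4.55, 9.59 and 0 CPM on normal food. For Wnt6, Ser and Lcp65Ag1, NR library 2 was the lowest of the NR libraries, as it was for hth.

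**Figure D4:**
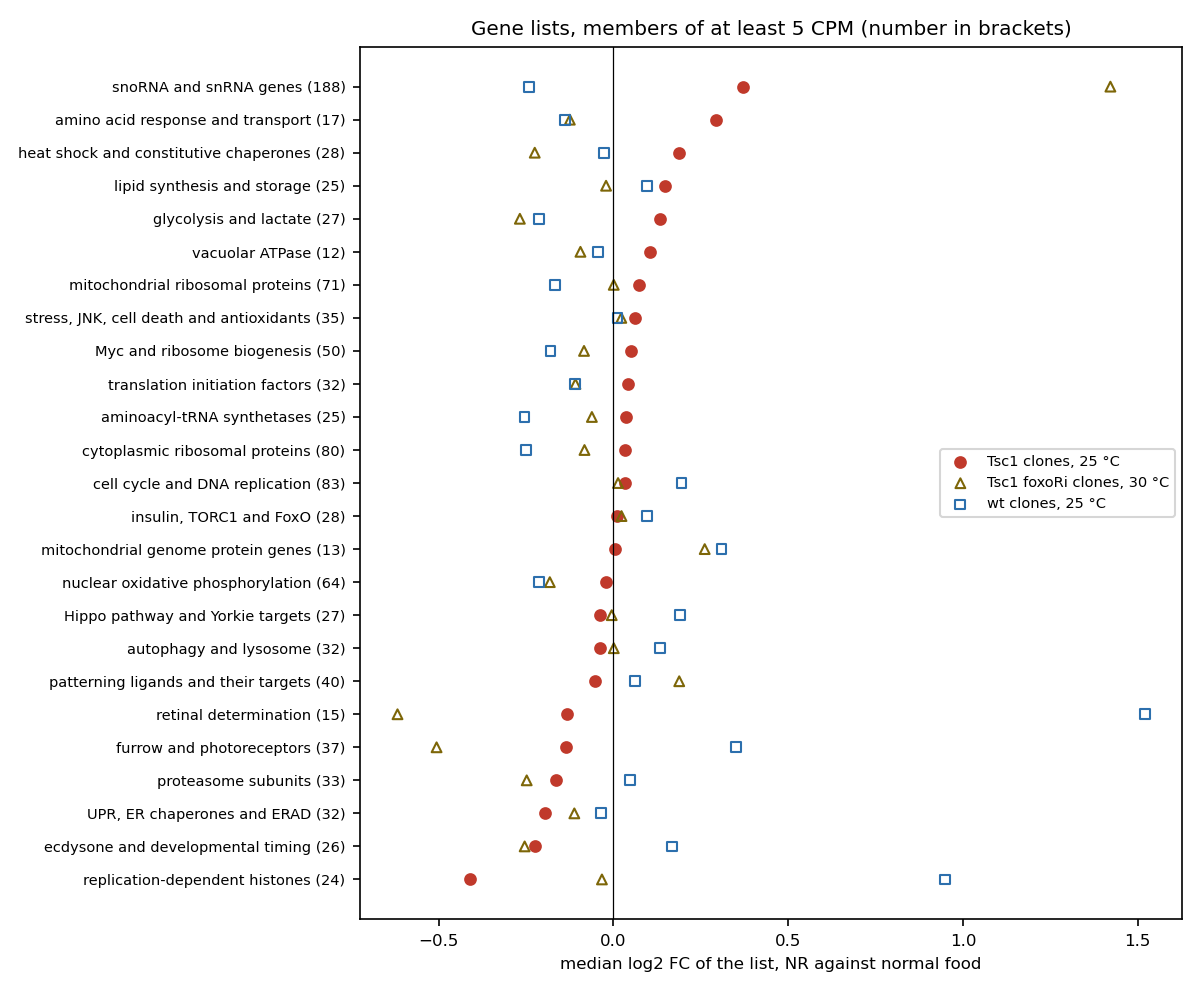
Median log2 FC of NR against normal food for 25 gene lists with 10 or more members of at least 5 CPM (number in brackets), in Tsc1 clones at 25 °C (filled circles), Tsc1 foxoRi clones at 30 °C (triangles) and wt clones at 25 °C (squares). Lists are ordered by the value in Tsc1 clones, most of which lie near 0 (cytoplasmic ribosomal proteins at 0.03), with snoRNA and snRNA genes at 0.37.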

How the data were processed

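Single clones of about 50 cells were captured and libraries made with a low-input kit. The authors trimmed reads with Trimmomatic, used STAR for alignment to BDGP6 and featureCounts for counting, and deposited estimated counts per gene, which were rounded to whole numbers here; tool versions and whether strand was used are not given in the sources used here. Of 17559 genes, 17253 matched the annotation. Library totals, 8232312 to 13316136 in the Tsc1 libraries, limit the precision of rare genes. Groups came from the sample labels. With edgeR 4.0.16 (R 4.3.3), TMM scaling, filterByExpr and the robust quasi-likelihood test were run in 1 fit of 29 libraries of 8 groups, leaving out the 2 with the fewest genes with a count, of which 1 was a wt normal food library. Calls took a Benjamini-Hochberg adjusted p under 0.2 with a log2 FC beyond 0.8 in either direction. SE was obtained from the log2 FC and the F statistic, and intervals are 1.96 SE to each side. CPM use TMM library sizes. Library measures were compared with exact permutation tests (scipy 1.17.1). Alternatives covered DESeq2 1.42.0, the likelihood ratio test, scaling, filters, groups in the fit, covariates, the replicate block and left-out libraries.

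The genes named were Tsc1, foxo, the called genes or, where under 10 were called in a direction, the 10 of smallest unadjusted p, members of 28 gene lists by level, call or groups without overlap, and 11 marker lists. The members and lists were chosen with earlier results of these data known. Where nothing ties clones to separate animals, p-values measure the spread between these libraries. No sequences are printed.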

Additional observations from a re-analysis of the deposited data

Results flagged for a closer look

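Of 78 groups of 4 libraries checked, 6 had 1 library far from the others, by the gap to its neighbor over the whole range (critical value 0.829). This value flags about 1 in 20 groups drawn from a normal distribution. CPM values, and genes picked by their p, need not follow it, so the 6 have no chance rate beside them. The differentiating retina markers had a ratio of 0.972 in Tsc1 clones under NR, through NR library 2, and 0.913 on normal food, through library 4. The male RNAs had a ratio of 0.973 under NR, through library 3. On normal food, the ratio was 0.840 for heca, through library 4, 0.876 for snoRNA:Psi28S-3305c, through library 3, and 0.886 for the share of counts on the most abundant gene, through library 1.

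The food effect differed between Tsc1 and wt clones, in a test of the difference itself, for 6 genes. On the log2 scale the difference was -2.11 for Eip75B, -2.05 for olf413 and -2.87 for side-IV, and 2.32 for Msr-110, 2.33 for FBgn0250876 and 11.94 for CG31343. For CG31343 this is a fitted value with a group at 0 counts and gives no size. All had an adjusted p under the threshold with edgeR's quasi-likelihood test. None had one with the hth level as a covariate, but all 6 kept the sign of the difference.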

How the results depend on the processing

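Eip75B was called in Tsc1 clones under all 28 alternatives run. The count of genes called there, 1, became 68 with DESeq2's Wald test, 16 with edgeR's likelihood ratio test, 2 with only the 4 groups at 25 °C and 3 with only the groups compared. Leaving out 1 library gave 1 to 21 genes, 21 without NR library 2 and 4 each without NR library 1 or normal food library 4. Without both NR library 2 and normal food library 4, chosen after seeing the data, it was 14.

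The count for the difference from wt clones, 6, became 86 with DESeq2's Wald test, 49 with the likelihood ratio test, 12 with at least 10 counts in 4 Tsc1 libraries, 0 over all 31 libraries (803 at an unadjusted p under 0.05), 10 with only the 4 groups at 25 °C, which are also the groups compared, 12 with the library total as a covariate and 11 without snoRNA and snRNA genes. Leaving out 1 library gave 4 to 47, with 47 without wt NR library 1, 46 without Tsc1 NR library 2 and 23 without wt normal food library 1. Alternatives chosen after seeing the data gave 2 without NR libraries 3 and 4, 33 without NR library 2 and normal food library 4, 0 with the hth covariate and 16 over genes of at least 5 CPM. The cause was not tested.

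With the replicate number as a block, 1 gene was called in Tsc1 clones and 7 in the difference. Nothing in the labels says whether the numbers pair the samples. Deviations of same-numbered Tsc1 libraries correlated at 0.18, -0.20, 0.16 and -0.37. The highest correlation, 0.66, was between NR library 2 and normal food library 4. These few values cannot show whether the numbers mark a shared batch. Counts of 0 or few limit what rare genes can show.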
